A study of Mus musculus with 6 samples.

Results

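The insulin-like growth factor (IGF) system was examined in RNA-seq of C2C12, a mouse myoblast line whose cells can fuse into muscle fibers. It was taken as the 10 genes whose symbol in the deposited table is Igf1, Igf2, Igf1r, Igf2r, Igfbp2, Igfbp3, Igfbp4, Igfbp5, Igfbp6 or Igfbp7, out of 22375 rows. The CON group consisted of 3 libraries from unstretched cells, and the 4H group of 3 libraries from cells under cyclic stretch at 15% elongation for 4 h. Both groups were the same line, grown in medium with fetal bovine serum. The elastic plates were coated with poly-lysine before stretching, and the study does not say whether the CON cells were on such plates. The values are FPKM, fragment counts scaled to transcript length and to the mapped fragments of the library, so levels of different genes can be set side by side per length. The labels call the libraries biosamples and do not say whether they came from separate cultures, so the p values measure the spread between these samples, which may be technical.

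IGF1 and IGF2 are secreted peptides that bind the IGF1 receptor, a tyrosine kinase that signals through insulin receptor substrates to PI3K, AKT and mTOR. The IGF2 receptor, also the receptor for mannose 6-phosphate, takes IGF2 up and carries it to lysosomes. The IGF-binding proteins (IGFBPs) hold the peptides outside the cell, where proteases can release them, and several bind matrix or integrins as well. In muscle the system is known for its part in the proliferation, differentiation and growth of myoblasts and fibers.

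The sums of FPKM per library were 395790 to 397260 in the CON group and 385146 to 387516 in the 4H group, and the mean sum of the 4H group was 97.5% of that of the CON group. Fragment numbers cannot be read from FPKM. The relative depth of the libraries was taken from the most common ratio between libraries of values under 0.1 FPKM. It varied by no more than 1.58%. Only natural log ratios under 0.1 in size were searched, so larger differences in depth could not appear. Each estimate rests on 12 to 23 genes. Myoblast markers were present, with 5 of 7 past the filter, and their summed level was 154.2 to 158.6 FPKM in the CON group and 226.9 to 238.8 FPKM in the 4H group. Itga7 and Des make up most of that sum, and of the 5 tested, 4 were higher and Myf5 was lower, at 15.8 ± 0.85 FPKM in CON and 9.82 ± 1.13 FPKM in 4H (limma adjusted p = 0.000347). Markers of differentiated muscle summed to 1.57 to 2.07 FPKM in the CON group and 2.79 to 3.05 FPKM in the 4H group, nearly all of it Acta1 and Mymk. The means of the other 4 on that list, Myh1, Myh2, Myh3 and Ckm, were under the filter. Myh1 went from 0.0531 ± 0.04 FPKM to 0 in all 4H libraries. The means of Myh2, Myh3 and Ckm were also lower in 4H, but their groups overlapped. Myh2 and Ckm were above 0 in CON replicate 1 only, so these values give no direction. Myog, a marker of myoblasts that begin to differentiate, was at 0.136 to 0.281 FPKM in CON and at 0 to 0.0794 FPKM in 4H, also under the filter. Of the markers of other cell types, 2 of 3 for macrophages, Ptprc and Adgre1, and 2 of 3 for hepatocytes, Alb and Ttr, were listed at 0 in all 6 libraries. The third macrophage gene, Csf1r, was at 0 to 0.0272 FPKM in the CON group and 0.792 to 1.48 FPKM in the 4H group. The summed endothelial markers were 0.057 to 0.112 FPKM in the CON group and 0.146 to 0.261 FPKM in the 4H group. The summed osteoblast markers were 0 to 0.365 FPKM in the CON group and 0.535 to 0.677 FPKM in the 4H group. The summed adipocyte markers were 7.47 to 9.27 FPKM in the CON group and 11.1 to 11.7 FPKM in the 4H group, nearly all of it Pparg, with Plin1 listed at 0 throughout. The part of these genes in the results was not tested.

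Stretch was accompanied by opposite changes within the IGFBP family. Igfbp3 and Igfbp2 rose in the 4H group, Igfbp4 and Igfbp5 fell, and Igf2r fell. Igfbp6 and Igfbp7 moved by little, and Igf1r did not pass the test. The ligand genes Igf1 and Igf2 were at or near 0 in both groups. Of the 10 members, 8 averaged 0.5 FPKM or more across all 6 libraries and were tested, and Igf1 and Igf2 were not. An adjusted p of at most 0.05 was reached by 7 members, 3 higher and 4 lower, in a fit in which 46.7% of the 11593 genes tested passed, 22.6% higher and 24.1% lower. The study also asks for a log2 fold change (log2FC) of 1 or more in size, and by that rule 2 members were differentially expressed, Igfbp3 higher and Igfbp4 lower. The shares over all genes tested were 3.88% in either direction, 2.61% higher and 1.28% lower. The values of the groups did not overlap in any of these 8 members, 4 higher and 4 lower, and in 56.7% of all genes tested, 27.5% higher and 29.2% lower. The median log2FC of the 8 members was 0.02, and that of all genes tested was -0.01. The median absolute change was 0.45 for these members and 0.19 for all genes tested. Because RNA was taken from whole cultures, a change in the share of cells that express a gene and a change in RNA per cell cannot be told apart.

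**Figure D1:**
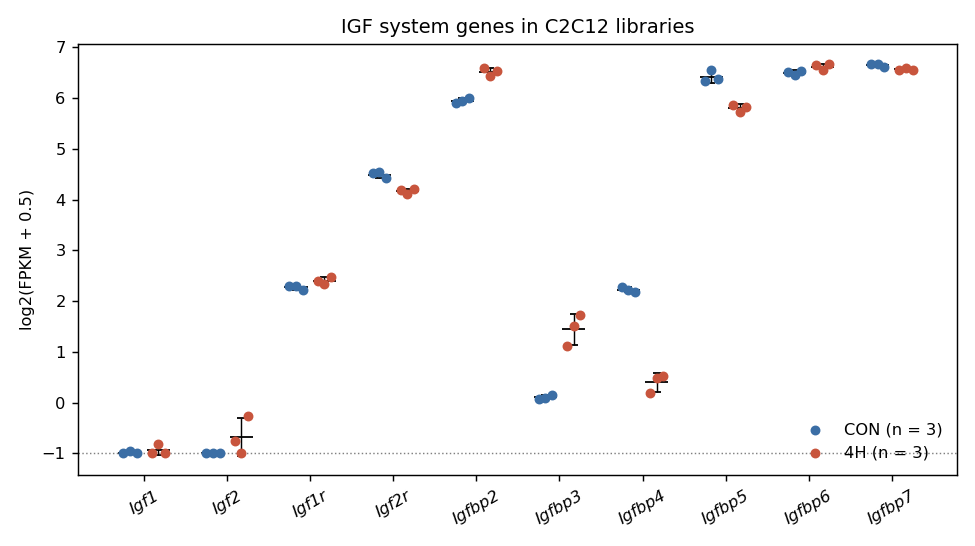
Level of each of the 10 IGF system genes as log2(FPKM + 0.5) in the 3 CON and the 3 4H libraries, with points for libraries, horizontal lines for the mean and error bars for the SD. The dotted line is the value at 0 FPKM, where Igf1 and Igf2 lie in most libraries, and the groups are apart in each of the other 8 genes.

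Igf1 (chr10:87858265-87937042, plus strand, GENCODE M21 on GRCm38) was listed at 0 in CON replicates 1 and 3 and had 0.0131 FPKM in CON replicate 2. In the 4H group it was listed at 0 in replicates 1 and 3 and at 0.0649 FPKM in replicate 2. Igf2 (chr7:142650766-142666816, minus strand), an autocrine factor of differentiating myoblasts, was listed at 0 in all 3 CON libraries. It was at 0.0923, 0 and 0.334 FPKM in 4H replicates 1, 2 and 3. The groups overlapped for both ligands, and neither value is enough for a fold change. In GENCODE M21, 60.3% of the 75-base stretches of Igf2 transcripts recur in transcripts of other genes, the overlapping Gm49394 among them, so its value is also uncertain.

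The receptor genes were well above the ligands. Igf1r (chr7:67952827-68233668, plus strand) was at 4.44, 4.42 and 4.12 FPKM in CON and at 4.77, 4.52 and 5.05 FPKM in 4H. Each 4H library was above each CON library, but the step was small. The log2FC was 0.13 (standard error, SE, 0.08, 95% interval -0.05 to 0.30, limma adjusted p = 0.201, by the Benjamini-Hochberg method). The interval includes no change as well as a rise of 0.30 on the log2 scale. A two-sided exact permutation test gave p = 0.1, the smallest that 3 libraries against 3 allow, and it gave the same p for each of the 8 members tested.

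Igf2r (chr17:12682406-12769664, minus strand), the scavenging receptor, was at 22.4, 22.7 and 20.8 FPKM in CON and at 17.6, 16.7 and 17.9 FPKM in 4H. It fell from 21.9 ± 0.97 to 17.4 ± 0.64 FPKM (mean ± SD, n = 3 libraries each), to 79.3% of the CON mean. The log2FC was -0.33 (SE 0.05, 95% interval -0.44 to -0.21, limma adjusted p = 0.00106). The level of Igf2r was 5.07 ± 0.05 times that of Igf1r within the CON libraries and 3.65 ± 0.09 times within the 4H libraries. The insulin receptor gene Insr, whose product can pair with the IGF1 receptor, was at 5.16 ± 0.11 and 4.90 ± 0.24 FPKM. Its log2FC was -0.07 (95% interval -0.23 to 0.09, limma adjusted p = 0.445), and per length it was close to Igf1r in both groups, with ratios of 1.19 ± 0.03 and 1.03 ± 0.06.

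Igfbp4 (chr11:99041244-99054392, plus strand), an IGFBP known to restrain IGF action until the protease PAPP-A cuts it, had the largest change of the members. It was at 4.34, 4.14 and 4.03 FPKM in CON and at 0.633, 0.898 and 0.941 FPKM in 4H. All 4H values lay below a level of 1 FPKM and all CON values above 4 FPKM, so the groups were far apart. The mean fell from 4.17 ± 0.15 to 0.824 ± 0.17 FPKM, a level 5.06-fold lower. On the log2(FPKM + 0.5) scale the change was -1.83 (SE 0.12, 95% interval -2.10 to -1.55, limma adjusted p = 8.26e-06). That scale understates the change of low genes, and the log2 ratio of the mean FPKM was -2.34. Of the genes tested, 99.3% had a smaller absolute change. Igfbp4 passed from above 22.7% of all genes tested in level to above 3.34%. Only 0.432% of its sequence, in stretches of 75 bases, is shared with another gene.

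Igfbp3 (chr11:7206086-7213923, minus strand), the main carrier of IGF in serum and a secreted protein that also acts on cells, went the other way from a low level. It was at 0.549, 0.557 and 0.615 FPKM in CON and at 1.66, 2.33 and 2.79 FPKM in 4H. The 4H libraries were all higher but spread more widely, and replicate 1 was lowest. The mean rose from 0.574 ± 0.04 to 2.26 ± 0.57 FPKM, a level 3.94-fold higher. The log2FC was 1.34 (SE 0.16, 95% interval 0.96 to 1.72, limma adjusted p = 0.000293), and the log2 ratio of the mean FPKM was 1.98. The interval reaches under the fold threshold of 1. The ratio of Igfbp3 to Igfbp4 was 0.127 to 0.152 in the CON libraries and 2.60 to 2.96 in the 4H libraries, so their order was reversed. Its neighbor on chromosome 11 is Igfbp1, another binding protein gene, with 3539 bases between them. Igfbp1 was listed at 0 in every library except 4H replicate 1, at 0.0779 FPKM.

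The 250 bases before the RefSeq start of both differentially expressed members are shown for comparison of what lies at their starts. They are on GRCm38.p6, at chr11:99040994-99041243 (plus strand) for Igfbp4 and chr11:7213924-7214173 (minus strand) for Igfbp3, each printed toward its start, with motif matches in capitals.
Igfbp4: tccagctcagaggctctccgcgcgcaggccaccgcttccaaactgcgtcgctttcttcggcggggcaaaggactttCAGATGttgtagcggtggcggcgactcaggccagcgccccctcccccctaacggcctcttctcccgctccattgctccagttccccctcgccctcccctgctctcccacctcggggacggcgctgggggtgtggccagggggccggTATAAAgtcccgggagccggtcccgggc
Igfbp3: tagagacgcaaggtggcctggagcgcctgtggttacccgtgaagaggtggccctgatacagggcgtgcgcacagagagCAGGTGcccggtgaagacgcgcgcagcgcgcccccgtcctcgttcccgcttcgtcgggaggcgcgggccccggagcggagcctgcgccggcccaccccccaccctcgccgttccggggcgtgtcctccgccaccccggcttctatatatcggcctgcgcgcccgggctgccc
The search covered TATA box (TATAAA, on the strand of the gene only), AP-1 (TGANTCA), CArG box, TEAD (GGAATG), FOXO (GTAAACA), E-box (CANNTG) and GC box (GGGCGG), on both strands unless stated. Of 32851 windows of this length in the RefSeq table, these were held by 7.59%, 6.75%, 1.47%, 12.6%, 3.17%, 66.2% and 32.7%, in that order. The window of Igfbp4 has a TATA box 28 bases before the start and an E-box 174 bases before it. That of Igfbp3 has 1 E-box, 172 bases before the start, and its GC content is 73.2%, against 69.2% for Igfbp4 and a median of 52.4% over all windows. No match overlapped another. A match describes letters and not a bound site.

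Igfbp2 and Igfbp5 lie next to each other on chromosome 1 and point toward each other, with 5457 bases between their ends. Igfbp2 (chr1:72824503-72852474, plus strand) encodes a binding protein with an RGD sequence, through which it can bind the integrin that Itga5 and Itgb1 encode. It was at 59.3, 60.7 and 63.8 FPKM in CON and at 95.8, 86.1 and 91.8 FPKM in 4H, with no overlap. The mean rose from 61.3 ± 2.28 to 91.2 ± 4.85 FPKM, a level 1.49-fold higher. The log2FC was 0.57 (SE 0.05, 95% interval 0.46 to 0.68, limma adjusted p = 3.07e-05). In FPKM, this gain of 29.96 was the largest of any member; on the log2 scale, 87.8% of all genes tested had a smaller absolute change.

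Igfbp5 (chr1:72857932-72874884, minus strand), the most conserved IGFBP and one that myoblasts raise as they differentiate, was at 79.97, 92.8 and 82.3 FPKM in CON and at 57.9, 52.5 and 55.8 FPKM in 4H. It fell from 85.0 ± 6.84 to 55.4 ± 2.70 FPKM, to 65.2% of the CON mean. The log2FC was -0.61 (SE 0.06, 95% interval -0.75 to -0.47, limma adjusted p = 9.28e-05). CON replicate 2 was the highest library, and without it the log2FC was -0.55. In each CON library Igfbp5 was above Igfbp2, with an Igfbp2 to Igfbp5 ratio of 0.654 to 0.775, and in each 4H library it was below, with a ratio of 1.64 to 1.65.

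The windows of 250 bases before the RefSeq starts of this neighboring pair are given because the genes moved in opposite directions. RefSeq lists 2 starts for Igfbp2 and 1 for Igfbp5. The windows before the Igfbp2 starts are chr1:72824230-72824479 and chr1:72825137-72825386 on the plus strand, and the window before the Igfbp5 start is chr1:72874866-72875115 on the minus strand. Capitals mark the same motifs as above.
Igfbp2, first start: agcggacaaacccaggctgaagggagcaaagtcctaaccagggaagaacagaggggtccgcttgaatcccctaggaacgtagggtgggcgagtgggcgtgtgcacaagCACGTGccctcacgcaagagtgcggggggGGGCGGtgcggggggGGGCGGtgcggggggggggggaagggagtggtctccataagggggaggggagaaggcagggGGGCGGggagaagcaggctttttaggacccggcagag
Igfbp2, second start: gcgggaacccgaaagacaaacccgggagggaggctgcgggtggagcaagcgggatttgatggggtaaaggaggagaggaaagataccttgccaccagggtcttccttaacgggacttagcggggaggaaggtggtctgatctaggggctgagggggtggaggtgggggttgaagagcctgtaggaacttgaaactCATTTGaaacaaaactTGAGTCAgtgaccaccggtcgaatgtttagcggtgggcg
Igfbp5: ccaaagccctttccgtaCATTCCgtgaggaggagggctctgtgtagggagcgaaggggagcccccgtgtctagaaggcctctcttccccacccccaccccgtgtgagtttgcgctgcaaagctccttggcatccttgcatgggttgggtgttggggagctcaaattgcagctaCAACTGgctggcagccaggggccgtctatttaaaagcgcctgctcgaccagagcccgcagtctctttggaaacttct
The first window of Igfbp2 has an E-box 142 bases before the start and 3 GC boxes, 113, 98 and 37 bases before it. The second has an AP-1 match 39 bases before the start and an E-box 55 bases before it. The window of Igfbp5 has a match to the TEAD letters on the opposite strand, 233 bases before the start, and an E-box 77 bases before it. FPKM per gene does not tell which start of Igfbp2 was used.

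Igfbp6 and Igfbp7 were the most abundant members with Igfbp5 and Igfbp2, and their changes were small. Igfbp6 (chr15:102144362-102149511, plus strand), a binding protein that prefers IGF2, was at 90.6, 86.8 and 92.5 FPKM in CON and at 99.6, 93.7 and 100.8 FPKM in 4H. The rise from 89.9 ± 2.87 to 98.0 ± 3.82 FPKM was a log2FC of 0.12 (SE 0.04, limma adjusted p = 0.0325). The adjusted p was above 0.05 when CON replicate 1 (0.0653) or 2 (0.0993), or 4H replicate 1 (0.0873) or 3 (0.101), was left out, and its range under the alternatives was 0.0116 to 0.101.

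Igfbp7 (chr5:77349240-77408041, minus strand), a secreted matrix-associated protein with low affinity for IGFs, was at 101.3, 101.1 and 97.9 FPKM in CON and at 93.4, 96.2 and 93.3 FPKM in 4H. The log2FC was -0.09 (SE 0.03, limma adjusted p = 0.0444). The call was lost when CON replicate 1 (0.118) or 2 (0.109), or 4H replicate 1 (0.110), 2 (0.0516) or 3 (0.113), was left out, and its range under the alternatives was 0.0420 to 0.408. With each library rescaled to the same sum (TPM), the adjusted p was 0.209 and the groups overlapped. An exon of Igfbp7 overlaps one of Polr2b on the other strand, and how the strand entered the counting is not given in the sources used here. Polr2b was at 34.9 to 37.2 FPKM in CON and at 35.0 to 37.1 FPKM in 4H (limma adjusted p = 0.809).

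**Figure D2:**
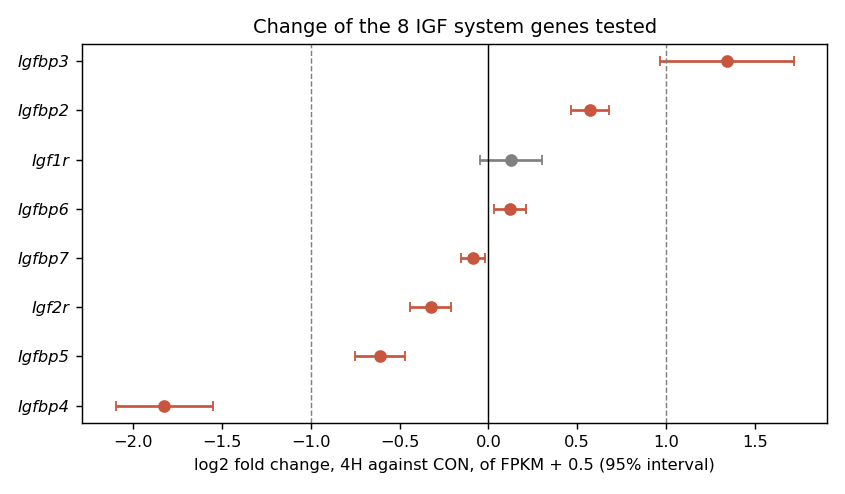
Log2 fold change of FPKM + 0.5 in 4H against CON with its 95% interval for the 8 members tested, in red where the adjusted p was at most 0.05 and in grey where it was not, with dashed lines at the fold threshold. Igfbp3 and Igfbp4 lie past the threshold on opposite sides, and the interval of Igf1r crosses 0.

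The order of the levels also differed between the groups. In the CON group it was Igfbp7, Igfbp6, Igfbp5, Igfbp2, Igf2r, Igf1r, Igfbp4 and Igfbp3, from 100.1 to 0.574 FPKM. The libraries of Igfbp6 and Igfbp5 overlapped, as did those of Igf1r and Igfbp4, so their order within the pairs is not resolved. In the 4H group the order was Igfbp6, Igfbp7, Igfbp2, Igfbp5, Igf2r, Igf1r, Igfbp3 and Igfbp4, from 98.0 to 0.824 FPKM. There Igfbp6 overlapped Igfbp7, and Igfbp7 overlapped Igfbp2, whereas Igfbp2 and Igfbp5 were apart. The summed FPKM of the 6 IGFBP genes was 336.0, 346.1 and 341.1 in CON and 348.9, 331.8 and 345.5 in 4H, and the groups overlapped. Within this sum, Igfbp2 made up 17.96% ± 0.64 in CON and 26.7% ± 0.75 in 4H, and Igfbp5 made up 24.9% ± 1.65 and 16.2% ± 0.38 (SD, n = 3). Igfbp4 went from 1.22% ± 0.06 to 0.242% ± 0.05 and Igfbp3 from 0.168% ± 0.01 to 0.662% ± 0.17. These shares are given as a description, without a test.

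**Figure D3:**
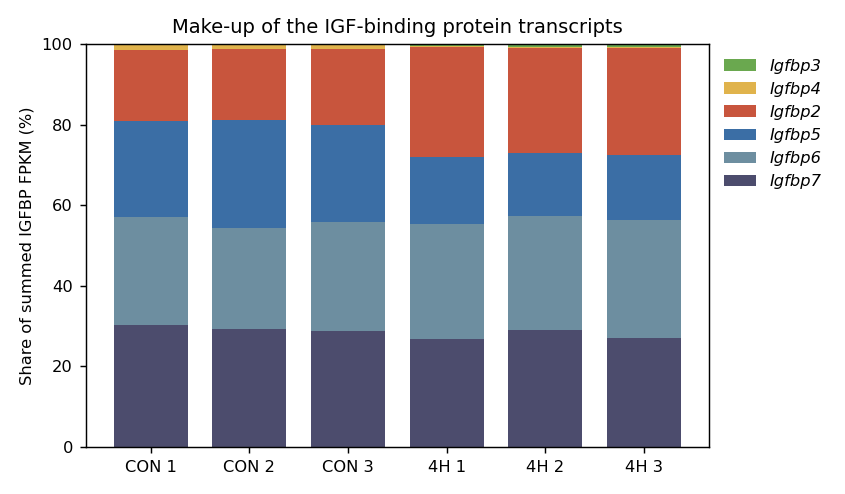
Share of each IGFBP gene in the summed FPKM of the 6 IGFBP genes, in percent, 1 bar per library. The Igfbp2 segment is 17.5% to 18.7% in the CON libraries and 26.0% to 27.5% in the 4H libraries, and the Igfbp5 segment narrows from 23.8% to 26.8% down to 15.8% to 16.6%.

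The genes around the members were followed in 8 lists with 102 genes, 99 of which are in the table and 76 of which were tested. Of these, 28 passed the adjusted p as higher and 18 as lower, together 60.5%, against 46.7% of all genes tested, of which 22.6% were higher and 24.1% lower. By the fold threshold as well, 8 were differentially expressed, against 3.88% of all genes tested. These 8 include Rln3, which passed the filter through its 4H libraries alone. Their median log2FC was 0.06.

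Proteases of IGFBPs and the inhibitors of these proteases moved in both directions. Of 9 listed, 6 were tested, and all 6 passed, 3 higher and 3 lower. Stc1 and Stc2 encode stanniocalcins, secreted glycoproteins that inhibit PAPP-A. Stc1 was at 0.798, 0.583 and 0.696 FPKM in CON and at 4.34, 4.10 and 3.78 FPKM in 4H (log2FC 1.94, SE 0.11, limma adjusted p = 4.13e-06). Stc2 was at 8.96, 7.93 and 9.38 FPKM in CON and at 2.75, 2.77 and 2.23 FPKM in 4H (log2FC -1.59, SE 0.10, adjusted p = 7.15e-06). The order of these stanniocalcin genes in level was therefore reversed, with Stc2 above Stc1 in CON and Stc1 above Stc2 in 4H. Htra3, a secreted serine protease, rose from 0.681 ± 0.07 to 1.66 ± 0.09 FPKM (log2FC 0.87, adjusted p = 0.000451). Pappa, the gene of PAPP-A itself, was under the filter, at 0.0376 to 0.0795 FPKM in CON and 0.193 to 0.322 FPKM in 4H.

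Among receptor substrates and adaptors, 13 of 16 were tested, with 5 higher and 3 lower. Grb14, an adaptor that binds and restrains the insulin receptor, was at 1.49, 1.47 and 1.19 FPKM in CON and at 5.49, 4.52 and 4.94 FPKM in 4H (log2FC 1.54, SE 0.11, limma adjusted p = 1.30e-05). Dok1, a docking protein of tyrosine kinases, rose from 25.8 ± 1.18 to 43.6 ± 1.17 FPKM (log2FC 0.74, adjusted p = 5.32e-06). Ptpn1, a phosphatase that acts on the insulin and IGF1 receptors, rose from 14.8 ± 0.45 to 19.9 ± 0.48 FPKM (log2FC 0.41, adjusted p = 0.000168). The main substrates differed from each other. Irs1 rose from 22.3 ± 0.45 to 29.6 ± 1.42 FPKM (log2FC 0.40, adjusted p = 0.000219). Irs2 was at 7.90 ± 0.45 and 6.86 ± 0.06 FPKM (log2FC -0.19, adjusted p = 0.0380). The call of Irs2 was lost in each leave-out except that of CON replicate 2: without CON replicate 1 (0.122), CON replicate 3 (0.0947), 4H replicate 1 (0.0764), 4H replicate 2 (0.0784) or 4H replicate 3 (0.0893). It was also lost with TPM (0.0809) and with no filter (0.0525). Grb10, Irs3 and Irs4 were listed at 0 in all 6 libraries.

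In the PI3K, AKT and mTOR branch all 30 listed genes were tested, with 7 higher, 8 lower and 15 not past the test, and the median log2FC was 0.02. Only Eif4ebp1, which encodes a repressor of cap-dependent translation that mTORC1 inactivates, was differentially expressed. It fell from 70.8 ± 0.40 to 30.5 ± 1.66 FPKM (log2FC -1.20, SE 0.04, limma adjusted p = 4.03e-07). Phlpp1, a phosphatase of AKT, rose from 5.28 ± 0.27 to 9.05 ± 0.40 FPKM (log2FC 0.73, adjusted p = 6.20e-05). Gsk3b, a kinase that AKT inhibits, fell from 28.8 ± 2.18 to 19.4 ± 2.21 FPKM (log2FC -0.56, adjusted p = 0.00111).

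Regulators of Igf2 and of its message were mostly not past the test. Of 10 listed, 7 are in the table and 5 were tested, and Hmga2, a chromatin protein that promotes expression of the IGF2 mRNA-binding protein Igf2bp2, was the only one to pass. Hmga2 rose from 125.3 ± 1.32 to 204.5 ± 0.44 FPKM (log2FC 0.71, SE 0.02, limma adjusted p = 3.43e-07). Igf2bp2 itself was at 20.9 ± 1.03 and 21.8 ± 0.13 FPKM (adjusted p = 0.353). The list of mannose 6-phosphate sorting genes, which share their route with the IGF2 receptor, had 2 higher and 3 lower of 8. The 2 higher were Plaur, which is not itself a sorting gene, and M6pr (log2FC 0.12, limma adjusted p = 0.0177). Plaur, the urokinase receptor, which can bind the IGF2 receptor, rose from 73.1 ± 5.59 to 113.7 ± 2.49 FPKM (log2FC 0.64, adjusted p = 3.79e-05). Gnptg, a subunit of the enzyme that starts the mannose 6-phosphate tag, fell from 18.9 ± 0.76 to 14.6 ± 0.47 FPKM (log2FC -0.36, adjusted p = 0.000596). Nagpa, which uncovers the tag, was at 10.2 ± 0.34 and 8.47 ± 0.70 FPKM (log2FC -0.25, adjusted p = 0.0188), and its call was lost without CON replicate 2 (0.0581), CON replicate 3 (0.0585) or 4H replicate 2 (0.0547).

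Of 12 cell surface and matrix partners of IGFBPs, 10 were tested, 8 were higher and 1 was lower, with a median log2FC of 0.52. Of all genes tested, 22.6% passed the adjusted p as higher and 24.1% as lower. Fn1, 1 of the 8 higher, had groups that overlapped (limma adjusted p = 0.0481). The list holds Itgb1, the integrin chain that the study follows in these libraries, so its direction is not independent evidence. Itgb3, the partner of αv in the vitronectin receptor, was the farthest (log2FC 2.37, limma adjusted p = 1.37e-07), followed by Thbs1, which binds IGFBP5 (2.04, adjusted p = 8.18e-08). Itga5, the α chain of the integrin that recognizes RGD in IGFBP2, rose from 41.6 ± 0.66 to 70.0 ± 0.43 FPKM (log2FC 0.74, adjusted p = 7.63e-07). A link between this rise and that of Igfbp2 was not tested.

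Other binding proteins and the wider insulin family were mostly silent. Of 4 further IGF-binding proteins, Kazald1 alone passed the filter, at 1.05 ± 0.21 and 1.54 ± 0.19 FPKM (log2FC 0.40, limma adjusted p = 0.0438). Its call was lost without CON replicate 2 (0.102), CON replicate 3 (0.135), 4H replicate 1 (0.0707), 4H replicate 2 (0.0624) or 4H replicate 3 (0.130), and also with quantile scaling (0.131) and with no filter (0.0602). Of 13 genes of the insulin and relaxin family, 8 were listed at 0 in all libraries, Ins1 and Ins2 among them, and 3 were tested. Insl6 was at 0.782 ± 0.58 and 0.511 ± 0.23 FPKM (adjusted p = 0.491). The relaxin peptide gene Rln3 reached 17.7 to 21.1 FPKM in the 4H libraries, and was thereby the most abundant ligand gene of the insulin superfamily listed here. Its CON libraries were at most 0.0878 FPKM, and no fold is given. Of the relaxin family receptors, Rxfp2, Rxfp3 and Rxfp4 were listed at 0 throughout and Rxfp1 in all libraries but 4H replicate 3, at 0.0447 FPKM.

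**Figure D4:**
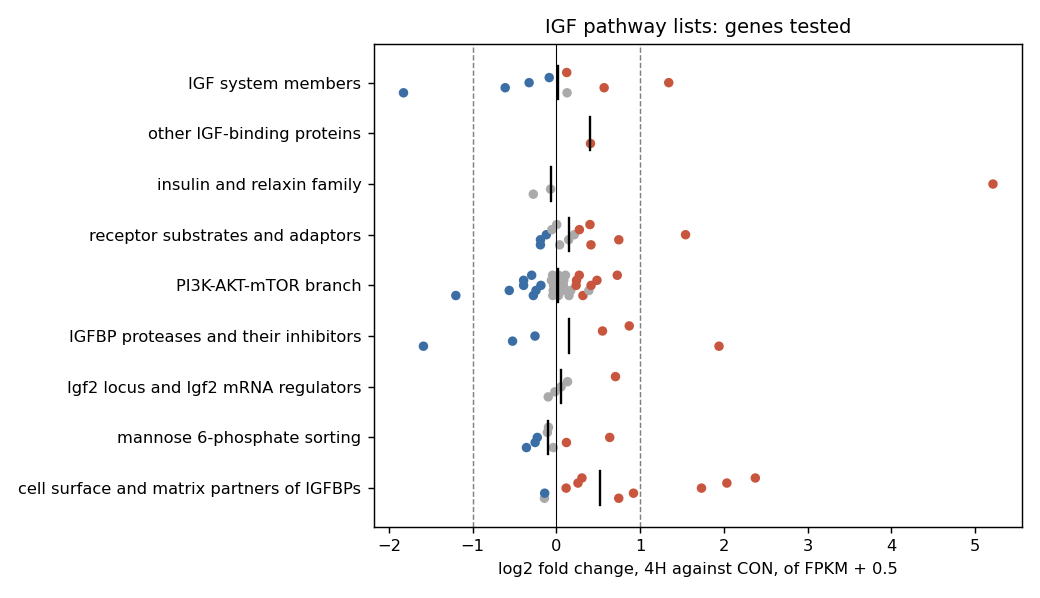
Log2 fold change of FPKM + 0.5 in 4H against CON for the tested genes of the members and the 8 pathway lists, red for higher and blue for lower at an adjusted p of at most 0.05 and grey for genes that did not pass, with black bars at list medians and dashed lines at the fold threshold. The point farthest to the right is Rln3, which is at or near 0 in CON, so its place on the axis depends on the pseudocount and is not read as a fold, and the partners of IGFBPs have the highest median with more than 1 gene, 0.52.

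The genes whose pattern over the 6 libraries was most like that of Igfbp4 were Pck2, Asns and Avil, of 8622 tested genes averaging 5 FPKM or more. Likeness was taken as the root mean square difference between log2 values centred on each gene's mean, and came to 0.105, 0.111 and 0.115. The step between the groups dominates this measure, so a fall close to that of Igfbp4 was fixed by the selection. The match also depends on the pseudocount in the log2 values, which understates the change of low genes such as Igfbp4. The log2 ratio of mean FPKM was -2.34 for Igfbp4, -1.95 for Pck2, -1.83 for Asns and -2.13 for Avil. Pck2 encodes a mitochondrial enzyme that makes phosphoenolpyruvate, and fell from 91.2 ± 2.94 to 23.5 ± 1.32 FPKM (log2FC -1.93). Asns encodes asparagine synthetase, and fell from 287.6 ± 5.22 to 81.1 ± 2.10 FPKM (log2FC -1.82). Avil encodes the actin-binding protein advillin, and fell from 11.5 ± 1.21 to 2.63 ± 0.30 FPKM (log2FC -1.94). In GENCODE M21, exons of Pck2 and of Avil overlap a gene on the other strand, as do those of Stc1, Irs1, Irs2, Hmga2, Gnptg and Thbs1 described above, so that reads of the partner gene may be part of their values.

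**Figure D5:**
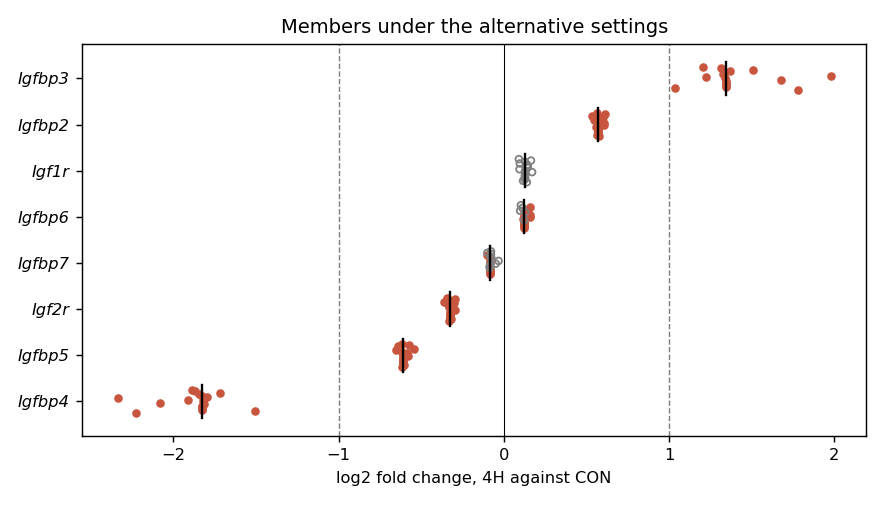
Log2 fold change of each tested member under the alternative settings, 1 point per setting, filled where the adjusted p was at most 0.05 and open where it was not, with black bars for the reported value and dashed lines at the fold threshold. Igfbp3 ranged from 1.04 to 1.98 and Igfbp4 from -2.34 to -1.51, while open points occur only for Igf1r, Igfbp6 and Igfbp7.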

How the data were processed

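RNA-seq of C2C12 cells was analysed from 3 CON and 3 4H libraries, grouped by the treatment labels. FPKM values for the 6 libraries were deposited by the authors together in 1 table, and the labels name the build mm10. Libraries were poly(A)-selected, strand-specific and paired-end. For alignment, counting and gene models the tool is not given in the sources used here. FPKM is normalized, so no count model was used, and precision rests on the spread of the libraries. Groups were compared with limma 3.58.1 (R 4.3.3; lmFit, eBayes with a trend) on log2(FPKM + 0.5), two-sided, for each gene averaging 0.5 FPKM or more. P values were adjusted over these by the Benjamini-Hochberg method, after a test on simulated data. The thresholds of 1 (log2) and 0.05 follow the study. Positions come from GENCODE M21 and promoter windows from the RefSeq table (GRCm38.p6, all 10 members matched).

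The members and lists were chosen with earlier results of these data known. Named were the members, in each list up to 3 genes with the largest change past the test, without overlap and with a mean of at least 1 FPKM, the tested genes of the insulin family and further binding proteins, and the 3 genes most like the member with the largest change. Of the genes this rule names, 1 is not reported here. Irs1, Irs2, Itga5, Polr2b, Igf2bp2, Pappa, M6pr and Fn1 were named after their values were seen. So were the marker genes given with values and genes listed at 0. Tried besides were a pseudocount of 0.1 or 1, dropping the filter or raising it to 1 or 5 FPKM, a replicate block, no trend, array weights, TPM, median-of-ratios and quantile scaling, the ratio of mean FPKM, and each library left out. Figures were drawn with matplotlib 3.10.9 in Python 3.11.15.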

Additional observations from a re-analysis of the deposited data

How the results depend on the processing

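Under 12 alternative settings and 6 leave-outs, the 8 tested members kept their direction in all 141 values. The ratio of mean FPKM has no p of its own, and of the other 133 values, 118 kept their side of an adjusted p of 0.05. The 15 that did not belong to Igfbp6 and Igfbp7. Igfbp2, Igfbp3, Igfbp4, Igfbp5 and Igf2r passed, and Igf1r did not pass, wherever they were tested. The number of members past the adjusted p was 5 to 7, and 5 to 7 with a library left out. Of the pathway list genes, 38 to 47 passed, against 46. Igfbp3 and Igfbp4 were the differentially expressed members except when the filter was raised to 5 FPKM, where the count was 0 because neither was tested. Over all genes, 245 were differentially expressed with that filter and 703 with TPM, against 450. TPM also changed the number of genes tested, to 12457 from 11593, and the cause of its count was not tested. Groups did not overlap in 7 of the 8 members with TPM. Of 452 values with their own p for 27 other named genes, 433 stayed on their side of the threshold and 19 lost a call (Irs2, Kazald1 and Nagpa). No called gene changed sign, but Polr2b, which had no call, turned from a log2 fold change of -0.01 to 0.02 with TPM and with quantile scaling, and to 0.00439 without CON replicate 1 and 0.00501 without 4H replicate 3.

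The replicate numbers are in doubt, since the titles of the 4H libraries carry 1, 3 and 4 where their descriptions, followed here, carry 1, 2 and 3. By the descriptions, libraries of equal number did not deviate together, with correlations of 0.02, -0.09 and -0.13 across 11593 genes, and each CON library correlated best with a 4H library of another number. By the titles, CON replicate 3 shares its number with 4H replicate 2, and their correlation was 0.18, the highest of the 9. A block by title numbers was not run. With the description's number as a block, 6 members passed (Igfbp7 had an adjusted p of 0.0757), and 4964 of all genes against 5409. The block also ended the calls of Irs2 (0.0701) and Kazald1 (0.0833).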

Other observations

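Some genes of the lists lay under the filter on low values and entered no test. Igfals, the acid-labile subunit that binds IGF with a binding protein in serum, was listed at 0 in all CON libraries and was at 0, 0.0304 and 0.0429 FPKM in 4H replicates 1, 2 and 3. Pappa2, a second pappalysin, was at 0.0393 ± 0.02 FPKM in CON and 0.0496 ± 0.03 FPKM in 4H (SD, n = 3 libraries each). The fetal IGF2 mRNA-binding protein gene Igf2bp1 was at 0.121 ± 0.04 and 0.0899 ± 0.03 FPKM.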
